A study of Mus musculus with 8 samples.

Results

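The antioxidant and glutathione genes are the gene rows whose symbols name a glutathione peroxidase (Gpx), a peroxiredoxin (Prdx), a superoxide dismutase (Sod), a glutathione S-transferase (Gsta, Gstk, Gstm, Gsto, Gstp, Gstt or the microsomal Mgst), a thioredoxin (Txn), a thioredoxin reductase (Txnrd) or a metallothionein (Mt), together with Cat, Gclc, Gclm, Gss, Gsr, Nqo1, Srxn1, Nfe2l2 and Keap1. They were chosen by name and not by their values, though with earlier results of these data known. They made up 58 of 49585 gene rows, with 1 row for each symbol. Whole pituitary of wild-type C57BL/6 mice was profiled by bulk mRNA sequencing in 4 young samples (2 to 3 months of age) and 4 old samples (18 to 24 months), with no treatment in either group. Per the paper, the mice were perfused to remove circulating immune cells of the blood. Red blood cell markers were still present, at levels given below. Whether each sample is a separate mouse is stated in neither the labels nor the methods, and p-values therefore cover only how much these samples vary. Values are in FPKM, which is fragments scaled to the exon length of a gene and to the size of the library. The 8 libraries held 15042321 to 20429604 fragments, and the 58 genes took 0.159 to 0.208% of them.

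Cells make superoxide and hydrogen peroxide as by-products of respiration, of oxidative protein folding and of dedicated oxidases. Superoxide dismutases turn superoxide into hydrogen peroxide, and catalase, glutathione peroxidases and peroxiredoxins remove the peroxide. Glutathione peroxidases and peroxiredoxins do so with electrons that come from glutathione or thioredoxin. Glutathione transferases couple glutathione to reactive compounds, metallothioneins bind zinc and copper through many cysteines, and the transcription factor NRF2 (gene Nfe2l2), held in check by KEAP1, drives many of these genes. The pituitary is a secretory gland that folds large amounts of disulfide-bonded hormones such as growth hormone and prolactin.

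No antioxidant or glutathione gene passed the test for a difference between old and young pituitary at an adjusted p under 0.05, in either direction (limma on log2(FPKM + 0.1), Benjamini-Hochberg over 23498 genes whose mean reached 0.1 FPKM). Of all genes tested, 1.86% were called higher and 0.472% lower in old pituitary. The gene closest to the threshold was Gstt2, a theta-class glutathione transferase, with an adjusted p of 0.058. Of the 58 genes, 52 were tested and 6 lay under the level filter. At an unadjusted p under 0.05, 14 of the 52 were higher in old pituitary (26.9%), beside 18% of all genes, and 4 were lower (7.69%), beside 3.79% of all genes. The 14 were Cat, Gpx2, Gpx3, Gpx4, Gss, Gsta3, Gsto2, Gstt2, Gstt3, Keap1, Mgst3, Prdx4, Txn2 and Txnrd2, and the 4 were Gstm7, Mt1, Nqo1 and Txnrd3. With other tools, limma with a mean-variance trend called 3 genes higher (Gpx4, Gstt2 and Keap1), beside 3% of all genes, and 1 lower (Mt1), beside 0.592%. Fitted by voom, which weights each value by its fragment count, 4 were called higher (Gpx3, Gpx4, Gstt2 and Keap1), beside 6.11%, and 2 lower (Mt1 and Nqo1), beside 1.52%. Among genes whose mean reached 1 FPKM, 12 of 45 members were higher at an unadjusted p under 0.05 (26.7%), beside 23.8% of all genes at this level, and 5 were lower (11.1%), beside 3.35%.

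How the libraries were scaled bears on each value that follows. Ribosomal RNA repeat genes took 33.8 to 40.3% of the fragments of a library. Together with hormone genes they took 48.0 to 52.6% in the young and 42.8 to 48.1% in the old libraries. With FPKM as deposited, the median gene had a log2 fold change of 0.15 from young to old, and that of the 52 members was 0.18. Rescaling by the median ratio of each library to the average library over genes (median-of-ratios scaling) brought the median of all genes to 0.01 and that of the members to 0.03. As deposited, 35 of the 52 members had a log2 fold change above 0, beside 70.0% of all genes, and under median-of-ratios scaling 30 had, beside 51.2% of all genes. Under that scaling 8 were higher and 9 lower at an unadjusted p under 0.05, beside 8.78% and 8.44% of all genes. Of the members, 1 passed the adjusted threshold there (Mt1, lower), beside 0.915% of all genes lower and 0.885% higher. Values under median-of-ratios scaling are therefore set beside those as deposited.

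**Figure D1:**
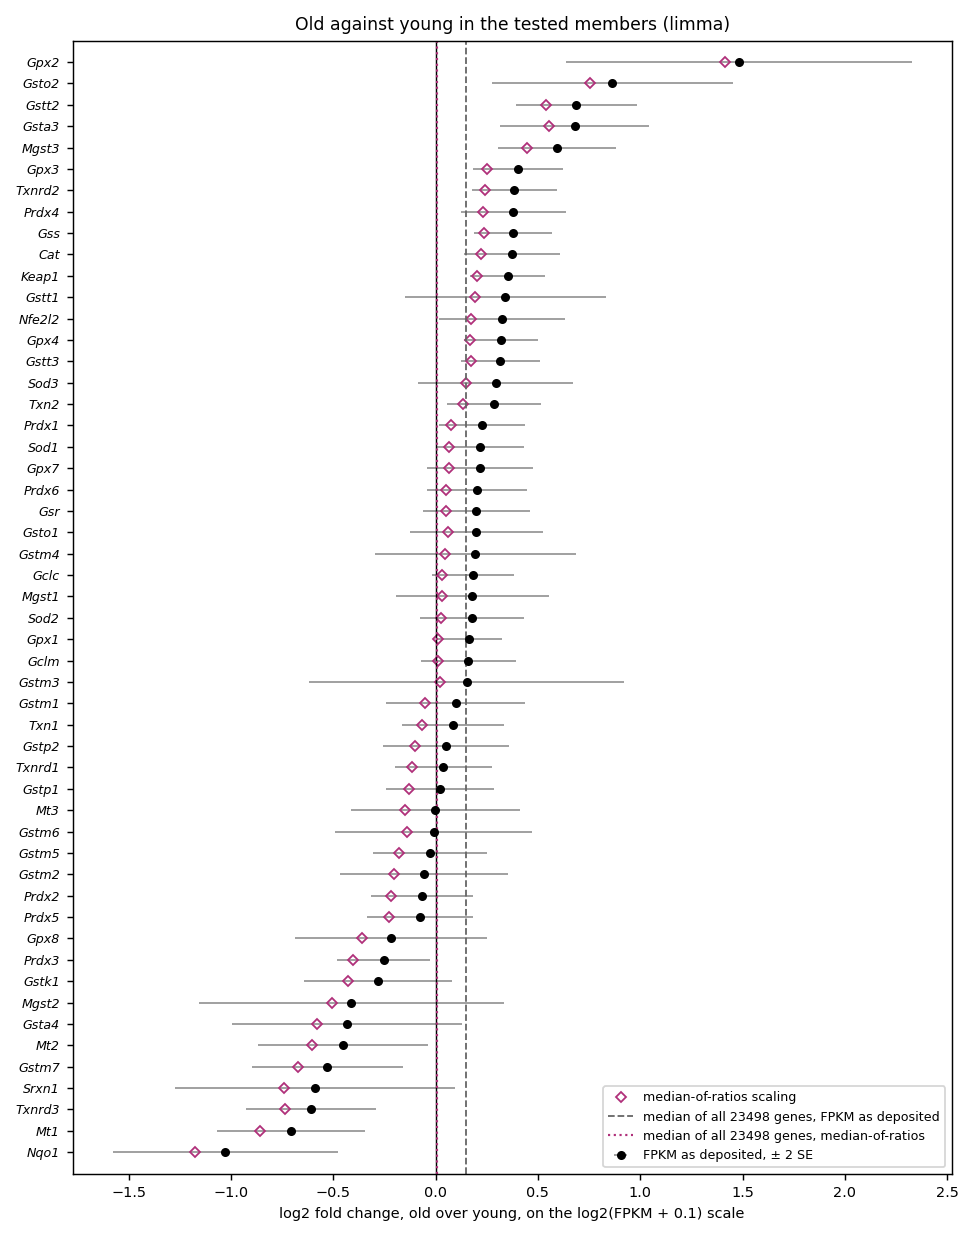
Log2 fold change of old over young pituitary, on the log2(FPKM + 0.1) scale, for the 52 tested members, in order of size. Black points are FPKM as deposited with 2 standard errors to each side, open diamonds the median-of-ratios scaling, and the dashed and dotted lines the medians of all 23498 genes under these scalings. Gpx2 at 1.48 and Nqo1 at -1.03 end the order, and 35 of the 52 black points lie above 0, beside 70.0% of all genes.

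The levels of these genes spanned a wide range. Gpx3 and Sod1 stood above 100 FPKM on average over the 8 libraries, 18 genes lay between 10 and 100 FPKM, 25 between 1 and 10, and 7 between 0.1 and 1. Gpx3, which encodes the secreted plasma-type glutathione peroxidase, had the highest mean at 247 FPKM, and Sod1, the cytosolic copper-zinc superoxide dismutase, followed at 178 FPKM. Gstp1 at 48.7 FPKM, Mt2 at 44.6, Srxn1 at 43.0, Gpx4 at 34.1, Prdx2 at 32.6, Gstm1 at 30.6, Mt1 at 29.7 and Txn1 at 29.5 completed the 10 highest. The ranges over libraries of neighbours from Gstp1 downwards overlapped, so the order within these is not fixed by the data. Of the 6 genes that were not tested, Gpx5, Gpx6 and Gstp3 were listed at 0 in every library, and Gsta1, Gsta2 and Gstt4 had 1 to 4 fragments in all 8 libraries together.

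**Figure D2:**
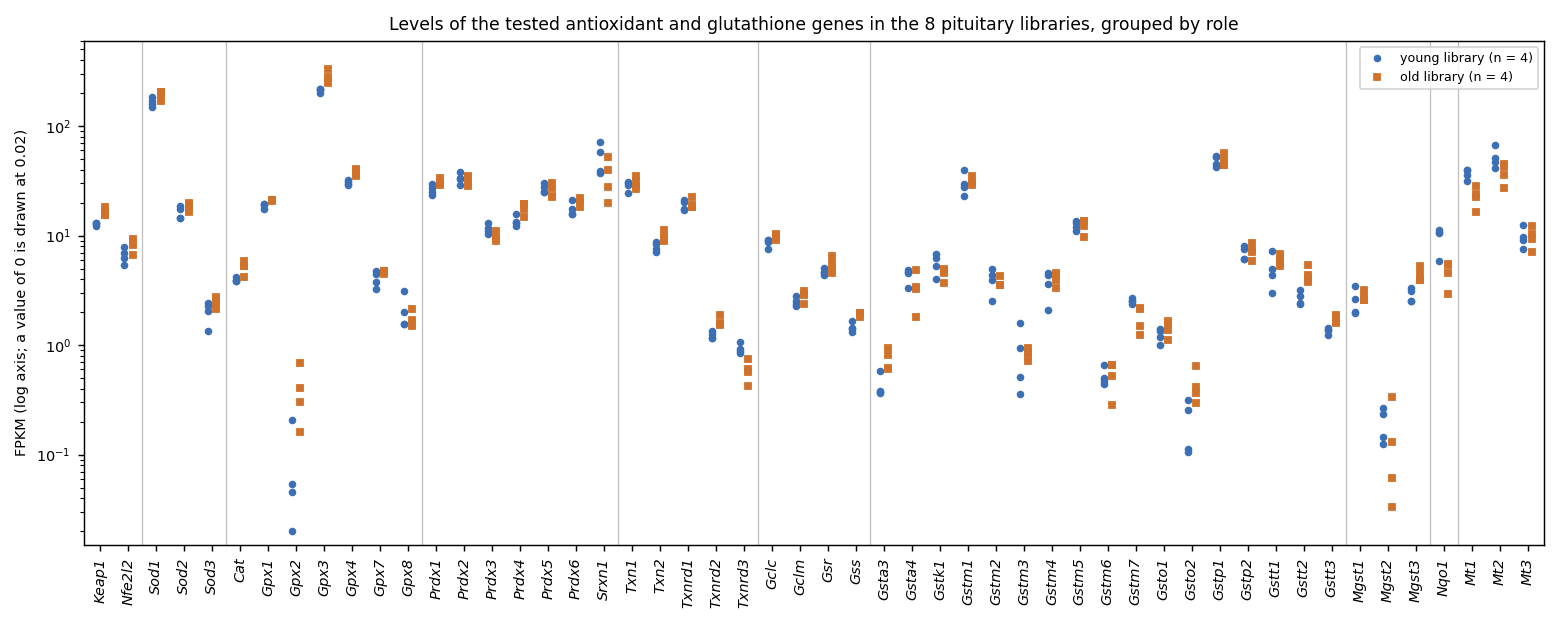
FPKM on a log axis for the 52 tested members, grouped by role, with the 4 young libraries as circles and the 4 old libraries as squares. Gpx3 and Sod1 stand above 100 FPKM, and the circles and squares overlap for most genes. Mt1, Nqo1, Txnrd3 and Gstm7 are the members whose old libraries all lie below the young ones.

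Of the metallothioneins, Mt1 and Mt2 had lower means in old pituitary and Mt3 the same mean at both ages. Mt1, on the plus strand at chr8:94179082-94180327 (GRCm38, GENCODE M21), was at 31.3, 36.0, 39.4 and 40.0 FPKM in young libraries 1 to 4 and at 16.3, 22.4, 23.9 and 28.4 FPKM in old libraries 1 to 4. Every old library lay below every young one. The mean was 36.7 ± 4.01 FPKM over young and 22.8 ± 5.0 FPKM over old libraries (SD, n = 4 each), from 3259 and 2036 fragments. The log2 fold change was -0.71 (SE 0.18) with an adjusted p of 0.086 (limma), and -0.86 with an adjusted p of 0.041 under median-of-ratios scaling, so Mt1 fell by the second scaling and missed the threshold by the first. With each library left out in turn the adjusted p of Mt1 stayed between 0.074 and 0.19. Mt2, the neighbouring gene with a similar product, was at 41.2, 46.8, 51.2 and 66.7 FPKM in the young libraries and at 27.1, 42.4, 35.8 and 45.3 FPKM in the old ones. Old libraries 2 and 4 lay above the lowest young library, so the groups overlapped as deposited, whereas under median-of-ratios scaling every old library lay below every young one. Its log2 fold change was -0.45 (SE 0.21, adjusted p = 0.26, limma) and -0.60 (adjusted p = 0.14) under median-of-ratios scaling. Mt3, a metallothionein found mainly in the nervous system, was at 7.58, 12.5, 9.64 and 9.18 FPKM in young and at 7.11, 9.39, 12.1 and 10.4 FPKM in old libraries. The Mt3 groups overlapped fully, with a mean of 9.74 FPKM at both ages and a log2 fold change of 0.00, or -0.15 (adjusted p = 0.75) under median-of-ratios scaling. Exons of Mt2 share 432 bases with Gm45774 on the opposite strand, and whether strand was used in the counting is unknown, so reads of this pair cannot be told apart.

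Mt1 and Mt2 share a kind of control region, and their promoters are shown for that reason. Metal response elements are bound by the zinc-sensing factor MTF1, and their core was searched on both strands as TGCACNC or TGCGCNC in windows from 250 bases before to 50 bases after the RefSeq start site (GRCm38.p6). Of the 58 members, 52 matched a promoter in that table. The Mt1 window held 3 matches, that of Mt2 held 4 and that of Mt3 held 1, and 25.7% of all 32851 promoter windows held at least 1 match, 1.97% at least 3. The window of Gclm, a gene with a log2 fold change of 0.16 as deposited, also held 3. The runs that follow are the plus strand, 5′ to 3′, from 250 bases before to 30 bases after the start site, at chr8:94178839-94179118 for Mt1 and at chr8:94172368-94172647 for Mt2, with the matches in capitals.
Mt1: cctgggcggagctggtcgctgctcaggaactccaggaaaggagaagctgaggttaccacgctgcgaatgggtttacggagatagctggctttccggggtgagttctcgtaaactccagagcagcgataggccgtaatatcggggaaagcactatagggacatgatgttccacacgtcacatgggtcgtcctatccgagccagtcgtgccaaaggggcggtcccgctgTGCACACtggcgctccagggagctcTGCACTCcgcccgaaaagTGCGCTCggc
Mt2: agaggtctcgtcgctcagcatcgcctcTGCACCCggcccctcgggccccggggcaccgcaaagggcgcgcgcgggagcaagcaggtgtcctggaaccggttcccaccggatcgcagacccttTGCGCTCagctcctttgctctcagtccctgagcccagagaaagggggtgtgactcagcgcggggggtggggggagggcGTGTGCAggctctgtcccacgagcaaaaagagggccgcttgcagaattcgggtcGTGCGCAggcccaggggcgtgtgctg
All 3 Mt1 matches stood within 30 bases of the RefSeq start site, while those of Mt2 were spread from 223 bases before it to 10 bases after it. These distances and the counts of matches hold for the RefSeq start sites alone. GENCODE M21 starts Mt1 at chr8:94179082, inside the printed run, and Mt2 at chr8:94172664, past the end of its run. Among the 46 tested members with a promoter, 16 held at least 1 match, with a median log2 fold change of 0.07, and 30 held none, with a median of 0.18. A match is a stretch of letters and was not tested as a binding site.

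Of the genes of metal handling, neither the zinc-sensing factor gene Mtf1 nor any other of the 14 tested in the list of metal response and zinc transport genes passed the test. At an unadjusted p under 0.05, 2 were lower and 1 higher, beside 3.79% and 18% of all genes. The smallest p was that of Slc31a1, the copper importer CTR1. It was at 5.68, 4.97, 6.72 and 6.02 FPKM in young and at 3.85, 4.11, 4.17 and 3.87 FPKM in old libraries, with a log2 fold change of -0.53 (adjusted p = 0.055, limma). Every old library lay below every young one, and the adjusted p was 0.018 under median-of-ratios scaling.

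Nqo1, which encodes a quinone reductase and is a textbook NRF2 target, had the largest log2 fold change among members whose mean reached 1 FPKM. It lies on the minus strand at chr8:107388225-107403206. It was at 10.7, 5.86, 10.5 and 11.1 FPKM in young libraries 1 to 4 and at 5.44, 5.54, 4.54 and 2.95 FPKM in old libraries 1 to 4. Young library 2 stood far below the other young libraries and just above the old ones, and the groups did not overlap. The means were 9.54 ± 2.47 and 4.62 ± 1.2 FPKM (SD, n = 4 each), from 1071 and 511 fragments. The log2 fold change was -1.03 (SE 0.28, adjusted p = 0.095, limma) and -1.18 (adjusted p = 0.081) under median-of-ratios scaling. It was -1.24 with an adjusted p of 0.052 without young library 2. With voom, which called it, the adjusted p was 0.00996.

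The regulators themselves were at higher means in old pituitary, and neither passed the test. Keap1, the adaptor that marks NRF2 for breakdown, was at 12.2, 12.7, 13.0 and 13.0 FPKM in young and at 15.4, 16.2, 18.2 and 15.3 FPKM in old libraries. Every old library stood above every young one. Its log2 fold change was 0.35 (SE 0.09, adjusted p = 0.090, limma), and 0.20 (adjusted p = 0.26) under median-of-ratios scaling. Exons of Keap1 share 510 bases with Gm16754 on the opposite strand. Nfe2l2, the gene of NRF2, was at 6.93, 5.38, 6.22 and 7.84 FPKM in young and at 8.25, 9.39, 8.68 and 6.70 FPKM in old libraries. Old library 4 fell inside the young range. Its log2 fold change was 0.32 (SE 0.15, adjusted p = 0.27, limma), and 0.17 (adjusted p = 0.57) under median-of-ratios scaling. These are transcript levels, and NRF2 is controlled mainly through the stability of its protein, which was not measured.

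Other genes around NRF2 were counted beside the same shares of all genes, 1.86% called higher and 0.472% lower, and 18% higher and 3.79% lower at an unadjusted p under 0.05. Among 11 NRF2 partner genes none passed the test (limma), with 2 higher and 2 lower at an unadjusted p under 0.05. The smallest p was that of Sqstm1, the autophagy receptor p62 that binds KEAP1, at 70.2, 72.5, 69.8 and 72.1 FPKM in young and 89.0, 89.2, 93.0 and 91.8 FPKM in old libraries (log2 fold change 0.35, adjusted p = 0.059, limma, and 0.20, adjusted p = 0.26, under median-of-ratios scaling). Maff, a small MAF protein that pairs with NRF2 on DNA, was named after its values were seen, because its log2 fold change was the largest in size among the partners. It was at 3.16, 1.69, 4.20 and 4.49 FPKM in young and at 0.879, 0.817, 1.40 and 1.86 FPKM in old libraries, with a log2 fold change of -1.36 (adjusted p = 0.095, limma) and -1.51 (adjusted p = 0.076) under median-of-ratios scaling. Old library 4 lay above young library 2, so the groups overlapped. Of 21 tested NRF2 targets outside the antioxidant set, 3 rose, none fell, and 9 were higher at an unadjusted p under 0.05. Cbr3, a carbonyl reductase, rose from a mean of 0.913 to 2.44 FPKM (log2 fold change 1.30, adjusted p = 0.021). Osgin1, an oxidative-stress growth inhibitor, rose from 0.460 to 1.01 FPKM (0.97, adjusted p = 0.031). Trib3, a pseudokinase also induced by the amino acid and endoplasmic reticulum stress response, rose from 0.986 to 2.18 FPKM (1.07, adjusted p = 0.044). Under median-of-ratios scaling Cbr3 and Osgin1 remained past the threshold (adjusted p 0.028 and 0.036) and Trib3 did not (0.083).

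**Figure D3:**
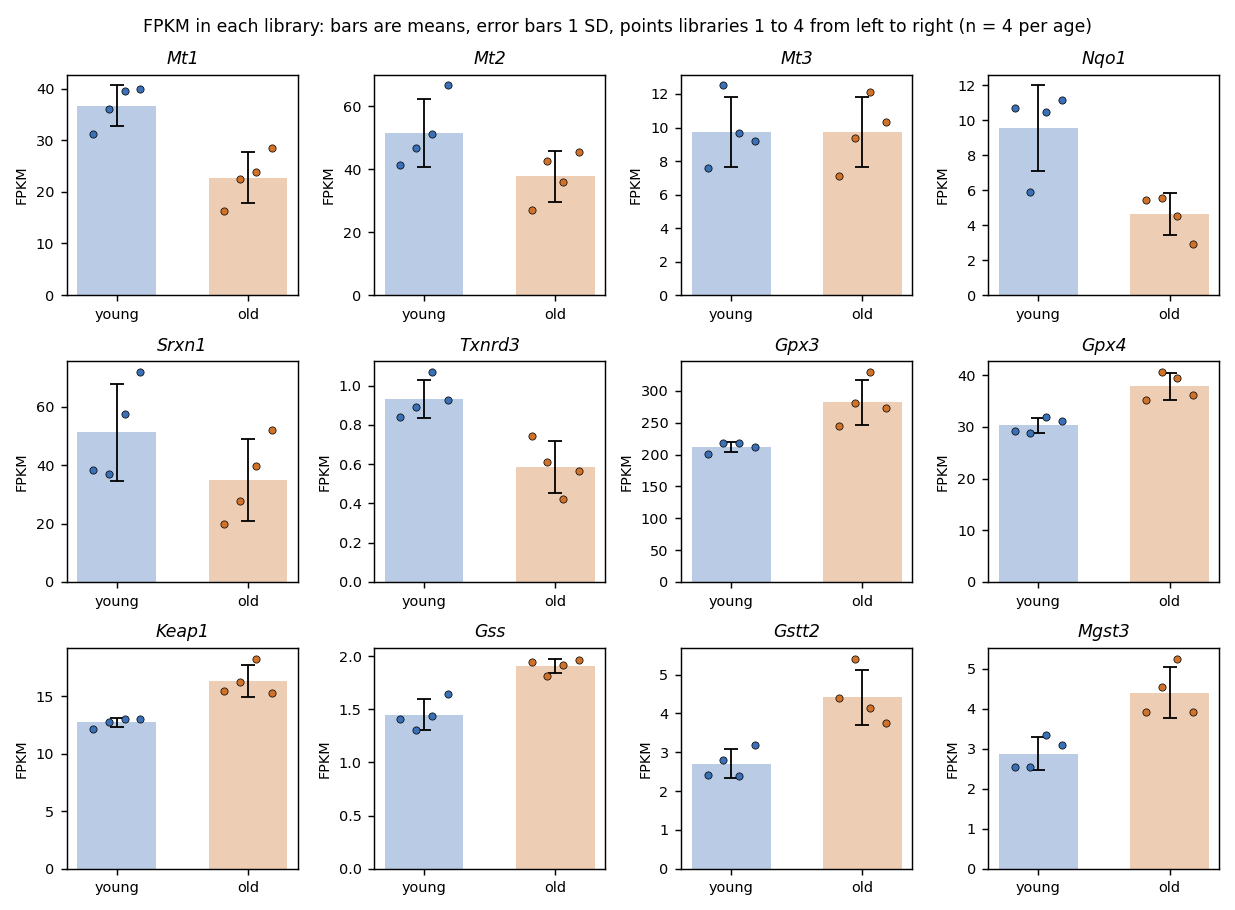
FPKM of 12 members in each library on linear axes that start at 0. Bars are means, error bars 1 SD and points libraries 1 to 4 from left to right, with 4 young and 4 old libraries. Mt1, Nqo1 and Txnrd3 have every old point below every young one, Gpx3, Gpx4, Keap1, Gss, Gstt2 and Mgst3 every old point above, and Mt2, Mt3 and Srxn1 overlap.

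Srxn1, sulfiredoxin, restores peroxiredoxins that peroxide has over-oxidised, and it is another textbook NRF2 target. It was at 38.4, 37.1, 57.5 and 71.9 FPKM in young and at 20.001, 27.7, 39.6 and 51.96 FPKM in old libraries. Both ages held a span of nearly the same width, old libraries 3 and 4 lay inside the young range, and the coefficient of variation was 32.5% in young and 40.1% in old pituitary. The log2 fold change was -0.59 (SE 0.34, adjusted p = 0.35, limma), and -0.74 (adjusted p = 0.27) under median-of-ratios scaling. It was -0.36 without old library 1 and -0.81 without old library 4. Libraries 3 and 4 were the highest of their age for Srxn1 and for Maff.

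The glutathione peroxidases and catalase were the role group with the largest summed level, 259 to 278 FPKM in the young and 313 to 403 FPKM in the old libraries, most of it Gpx3. Of its 7 tested members, 6 had a log2 fold change above 0 under both scalings, beside 70.0% and 51.2% of all genes, and 4 were higher at an unadjusted p under 0.05, beside 18%. Gpx3 was at 202, 219, 218 and 212 FPKM in young and at 245, 281, 330 and 274 FPKM in old libraries. Every old library lay above every young one, and the young libraries stood close together. The log2 fold change was 0.40 (SE 0.11, adjusted p = 0.10, limma), and 0.25 (adjusted p = 0.24) under median-of-ratios scaling, under which the groups overlapped. Gpx4, the peroxidase that reduces lipid hydroperoxides in membranes, was at 29.3, 28.8, 31.9 and 31.1 FPKM in young and at 35.2, 40.7, 39.5 and 36.2 FPKM in old libraries. The old libraries were all above the young ones under both scalings, with a log2 fold change of 0.32 (SE 0.09, adjusted p = 0.11, limma) and 0.17 (adjusted p = 0.31). Gpx1, the cytosolic form, was at 17.6 to 19.4 FPKM (young) and 20.7 to 21.3 FPKM (old). Cat, catalase of the peroxisome, was at 3.81, 3.82, 3.95 and 4.16 FPKM in young and at 5.25, 5.30, 5.86 and 4.20 FPKM in old libraries, with old library 4 just above the young range (log2 fold change 0.37, adjusted p = 0.13, limma). Under median-of-ratios scaling the Cat groups overlapped, with a log2 fold change of 0.22 (adjusted p = 0.36). Gpx2, a form known from the gut lining, was at 0.0545, 0, 0.0459 and 0.205 FPKM in young and 0.408, 0.304, 0.681 and 0.161 FPKM in old libraries. Its log2 fold change of 1.48 had an adjusted p of 0.11 (limma), was 1.41 (adjusted p = 0.15) under median-of-ratios scaling, and moved from 0.36 to 2.74 with a pseudocount of 1 or 0.01 FPKM, so its size depends on the pseudocount. Cat, Gpx2 and the other members named here outside the naming rule (Gsta3, Gsto2, Gstt3, Prdx4, Txn2, Txnrd2 and Txnrd3) were chosen after their values were seen, for an unadjusted p under 0.05.

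Gpx1 to Gpx4 and the thioredoxin reductases are selenoproteins, made by reading an in-frame TGA as selenocysteine. The 7 codons are annotated in GENCODE M21, and the coding sequence around each is shown, with the TGA in capitals, because the 2 families place it differently.
Gpx1: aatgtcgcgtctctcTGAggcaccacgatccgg
Gpx2: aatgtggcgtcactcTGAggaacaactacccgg
Gpx3: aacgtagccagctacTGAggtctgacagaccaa
Gpx4: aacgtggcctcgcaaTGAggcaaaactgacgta
Txnrd1: ctccagtctggctgcTGAggttaa
Txnrd2: actgtgactggttgcTGAggctaa
Txnrd3: actcagaaaggctgcTGAggctag
The TGA was codon 73 of 226 in Gpx3 (transcript Gpx3-201) and codon 129 of 253 in Gpx4 (Gpx4-201), whereas in each thioredoxin reductase 1 codon stood between it and the stop (codon 498 of 499 in Txnrd1, 526 of 527 in Txnrd2 and 614 of 615 in Txnrd3, in the transcripts Txnrd1-201, Txnrd2-203 and Txnrd3-201). For each gene the first transcript by name with the TGA and a stop codon annotated was taken, and other transcripts may number the codon differently. The positions are chr11:54907256-54907258 for Gpx3, chr10:80054737-80054739 for Gpx4, chr16:18477772-18477774 for Txnrd2 and chr6:89674789-89674791 for Txnrd3, all on the plus strand of GRCm38. Of these 7 genes, 6 had a log2 fold change above 0, in place of 5 under median-of-ratios scaling, beside 70.0% and 51.2% of all genes. At an unadjusted p under 0.05 (limma), Gpx2, Gpx3, Gpx4 and Txnrd2 were higher and Txnrd3 lower, beside 18% and 3.79% of all genes. Under median-of-ratios scaling Gpx2, Gpx3 and Txnrd3 kept such a p, beside 8.78% of all genes higher and 8.44% lower. There Gpx4 and Txnrd2 did not (unadjusted p 0.056 and 0.0505, limma). Among 22 tested genes of other selenoproteins and their synthesis, 2 rose and none fell, beside 1.86% and 0.472% of all genes. Selenom, a selenoprotein of the endoplasmic reticulum, was at 26.4, 26.1, 24.2 and 25.7 FPKM in young and 42.1, 38.2, 41.9 and 37.7 FPKM in old libraries (log2 fold change 0.64, adjusted p = 0.020, limma). Dio2, the deiodinase that activates thyroid hormone, was at 8.58, 7.10, 6.52 and 7.30 FPKM in young and 27.6, 24.9, 51.9 and 14.1 FPKM in old libraries (1.85, adjusted p = 0.046). Their adjusted p was 0.062 and 0.066 under median-of-ratios scaling.

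Thioredoxin reductases had both higher and lower means in old pituitary. Txnrd3, a reductase known from testis, was at 0.841, 0.891, 1.07 and 0.925 FPKM in young and at 0.745, 0.610, 0.421 and 0.564 FPKM in old libraries. The groups did not overlap, and the values rest on 189 fragments in the young and 117 in the old libraries together. Its log2 fold change was -0.61 (SE 0.16, adjusted p = 0.091, limma), and -0.74 (adjusted p = 0.083) under median-of-ratios scaling. Txnrd2, the mitochondrial reductase, was at 1.27, 1.16, 1.36 and 1.16 FPKM in young and at 1.55, 1.54, 1.60 and 1.90 FPKM in old libraries. Every old library lay above every young one (log2 fold change 0.39, SE 0.10, adjusted p = 0.098, limma, and 0.24, adjusted p = 0.29, under median-of-ratios scaling). Txn2, the thioredoxin of mitochondria, was at 7.57, 7.11, 8.65 and 8.42 FPKM in young and at 9.67, 8.86, 11.2 and 9.09 FPKM in old libraries (0.28, SE 0.11, adjusted p = 0.20, limma). The Txn2 groups did not overlap as deposited, and they overlapped under median-of-ratios scaling, with a log2 fold change of 0.13 (adjusted p = 0.51). The cytosolic Txn1 was at 24.6, 28.7, 30.9 and 30.4 FPKM in young and at 28.4, 26.7, 31.6 and 34.9 FPKM in old libraries, with a log2 fold change of 0.08 that became -0.07 under median-of-ratios scaling. Txnrd1, the cytosolic reductase, was at 17.1 to 20.9 FPKM (young) and 18.1 to 22.6 FPKM (old). Of 18 thioredoxin partner genes, 1 rose and none fell, beside 1.86% and 0.472% of all genes. At an unadjusted p under 0.05, 8 were higher, beside 18% of all genes. The riser was Sesn2, a stress-induced sestrin, at 2.14, 2.31, 2.41 and 2.55 FPKM in young and 3.65, 4.31, 5.47 and 3.44 FPKM in old libraries (0.79, adjusted p = 0.048, limma, and 0.064 under median-of-ratios scaling).

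The peroxiredoxins, most of which reduce peroxide with electrons from thioredoxin, summed to 118 to 145 FPKM (young) and 129 to 144 FPKM (old). Their median log2 fold change was 0.07 as deposited and -0.08 under median-of-ratios scaling. Prdx4, the peroxiredoxin of the endoplasmic reticulum, was at 13.4, 12.2, 13.1 and 15.8 FPKM in young and at 19.3, 17.6, 19.3 and 14.9 FPKM in old libraries. Old library 4 lay inside the young range (log2 fold change 0.38, SE 0.13, adjusted p = 0.15, limma, and 0.23, adjusted p = 0.37, under median-of-ratios scaling). Prdx2, the cytosolic form that red blood cells hold in quantity, was at 32.5, 28.7, 33.8 and 38.3 FPKM in young and at 28.5, 29.5, 34.1 and 35.1 FPKM in old libraries, with a log2 fold change of -0.07 (SE 0.12, adjusted p = 0.79, limma) and -0.22 (adjusted p = 0.28) under median-of-ratios scaling. The groups overlapped over nearly their whole range. Prdx1, Prdx5 and Prdx6 lay between 15.6 and 33.7 FPKM in all libraries, and Prdx3, the mitochondrial form, was at 10.3 to 13.0 FPKM (young) and 8.86 to 10.9 FPKM (old). Prdx2 shares 350 exon bases with Junb and Rnaseh2a, and Prdx5 shares 409 with Trmt112.

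The superoxide dismutases all had a log2 fold change above 0 under both scalings, beside 70.0% and 51.2% of all genes, and none had an unadjusted p under 0.05. Sod1 was at 150, 158, 168 and 182 FPKM in young and at 187, 169, 206 and 204 FPKM in old libraries. Old library 2 lay inside the young range, and the log2 fold change was 0.22 (SE 0.11, adjusted p = 0.29, limma) and 0.07 under median-of-ratios scaling. Sod2, the manganese enzyme of mitochondria, was at 14.4 to 18.8 FPKM (young) and 16.4 to 19.9 FPKM (old), and Sod3, the secreted form, at 1.35 to 2.43 and 2.13 to 2.76 FPKM.

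The glutathione synthesis and reduction genes all had higher means in old pituitary, by a log2 fold change of 0.16 to 0.38 as deposited and a median of 0.04 under median-of-ratios scaling. The median of all genes was 0.15 as deposited and 0.01 under median-of-ratios scaling. Of all genes, 70.0% and 51.2% had a log2 fold change above 0. Gss, glutathione synthetase, was at 1.41, 1.30, 1.44 and 1.65 FPKM in young and at 1.94, 1.81, 1.91 and 1.96 FPKM in old libraries. Every old library lay above every young one under both scalings, with a log2 fold change of 0.38 (SE 0.10, adjusted p = 0.086, limma) and 0.24 (adjusted p = 0.18), and its exons share 1102 bases with Acss2, Gssos1 and Gssos2 on the opposite strand. Gclc, the catalytic subunit of the ligase that makes the first step, was at 7.48, 8.72, 9.05 and 9.13 FPKM in young and at 9.14, 10.3, 10.1 and 9.44 FPKM in old libraries (0.18, SE 0.10, adjusted p = 0.33, limma, and 0.03, adjusted p = 0.88, under median-of-ratios scaling). The highest young and the lowest old value of Gclc, 9.13 and 9.14 FPKM, nearly touched, the groups overlapped under median-of-ratios scaling, and the log2 fold change was 0.12 without young library 1. Gclm, the modifier subunit, was at 2.39, 2.27, 2.54 and 2.79 FPKM in young and at 2.37, 3.10, 2.90 and 2.85 FPKM in old libraries (0.16, SE 0.12, adjusted p = 0.46, limma, and 0.01, adjusted p = 0.96, under median-of-ratios scaling). Gsr, the reductase that regenerates glutathione, was at 4.69, 4.37, 4.53 and 5.0 FPKM in young and at 4.92, 4.52, 6.54 and 5.61 FPKM in old libraries (0.20, SE 0.13, adjusted p = 0.41, limma, and 0.05, adjusted p = 0.86, under median-of-ratios scaling). Without old library 3 the log2 fold change of Gsr was 0.10. The Gclm and Gsr groups overlapped between the ages. Of 22 tested genes of glutathione use and recycling, none passed the test (limma). At an unadjusted p under 0.05, 6 were higher and none lower, beside 18% and 3.79% of all genes. The smallest p was that of Oplah, the oxoprolinase of glutathione breakdown (log2 fold change 0.51, adjusted p = 0.087, and 0.37, adjusted p = 0.19, under median-of-ratios scaling).

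Glutathione transferases are given by class. Of 17 tested cytosolic and mitochondrial members, 11 had a log2 fold change above 0, in place of 8 under median-of-ratios scaling, beside 70.0% and 51.2% of all genes, and their median was 0.10 and -0.05. The theta class, Gstt1, Gstt2 and Gstt3, was above 0 in every member under both scalings. Gstt2 was at 2.42, 2.81, 2.39 and 3.19 FPKM in young and at 4.40, 5.41, 4.13 and 3.76 FPKM in old libraries. The groups did not overlap, and the log2 fold change was 0.69 (SE 0.15, adjusted p = 0.058, limma) and 0.54 (adjusted p = 0.12) under median-of-ratios scaling. Gstt3 was at 1.24, 1.37, 1.38 and 1.44 FPKM in young and at 1.61, 1.59, 1.88 and 1.78 FPKM in old libraries (0.32, SE 0.10, adjusted p = 0.12, limma). Its groups did not overlap as deposited and overlapped under median-of-ratios scaling, with a log2 fold change of 0.17 (adjusted p = 0.31). In the alpha class the means went apart. Gsta3 was at 0.375, 0.367, 0.383 and 0.579 FPKM in young and at 0.601, 0.623, 0.812 and 0.934 FPKM in old libraries (0.68, SE 0.18, adjusted p = 0.094, limma, and 0.55, adjusted p = 0.13, under median-of-ratios scaling), from 132 and 231 fragments. Gsta4, which acts on the lipid peroxidation product 4-hydroxynonenal, was at 4.50, 3.31, 4.60 and 4.84 FPKM in young and at 1.82, 3.25, 3.36 and 4.83 FPKM in old libraries, with a log2 fold change of -0.43 (SE 0.28, adjusted p = 0.40, limma) and -0.58 (adjusted p = 0.30) under median-of-ratios scaling. Old library 1 held the lowest value of Gsta4, and without it the log2 fold change was -0.18.

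In the mu class 1 of 7 genes, Gstm7, had groups that did not overlap, beside 13.4% of all genes with every old library above and 2.06% with every old library below. Gstm7 was at 2.51, 2.53, 2.69 and 2.36 FPKM in young and at 1.24, 1.49, 2.14 and 2.18 FPKM in old libraries. Old libraries 1 and 2 were lower than old libraries 3 and 4, and the log2 fold change was -0.53 (SE 0.19, adjusted p = 0.16, limma) and -0.67 (adjusted p = 0.11) under median-of-ratios scaling. Gstm1, the most abundant of the class, was at 27.8, 22.8, 29.3 and 39.6 FPKM in young and at 29.1, 34.8, 31.2 and 30.5 FPKM in old libraries. Its log2 fold change of 0.10 became -0.05 under median-of-ratios scaling. Gstm2 to Gstm6 lay between 0.281 FPKM (Gstm6) and 13.7 FPKM (Gstm5) over all libraries. Gstp1 was at 45.1, 42.3, 52.4 and 53.3 FPKM in young and at 43.7, 44.0, 51.5 and 57.1 FPKM in old libraries, with a log2 fold change of 0.02 (SE 0.13) that became -0.13 under median-of-ratios scaling. Gsto2, an omega-class gene, was at 0.113, 0.257, 0.316 and 0.106 FPKM in young and at 0.641, 0.419, 0.368 and 0.295 FPKM in old libraries (0.86, SE 0.29, adjusted p = 0.15, limma, and 0.75, adjusted p = 0.28, under median-of-ratios scaling), and its log2 fold change moved from 0.25 to 1.18 with a pseudocount of 1 or 0.01 FPKM. Genes of the alpha, mu, pi and theta classes have close copies, and how the counting shared reads between copies is not given, so the split within a class is uncertain.

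Of the microsomal transferases, Mgst3 was at 2.55, 2.55, 3.35 and 3.09 FPKM in young and at 3.91, 4.54, 5.25 and 3.91 FPKM in old libraries. Every old library lay above every young one under both scalings, with a log2 fold change of 0.59 (SE 0.14, adjusted p = 0.075, limma) and 0.45 (adjusted p = 0.10). Mgst1 was at 1.97 to 3.45 FPKM (young) and 2.56 to 3.18 FPKM (old), and Mgst2 was at most at 0.336 FPKM in any library.

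**Figure D4:**
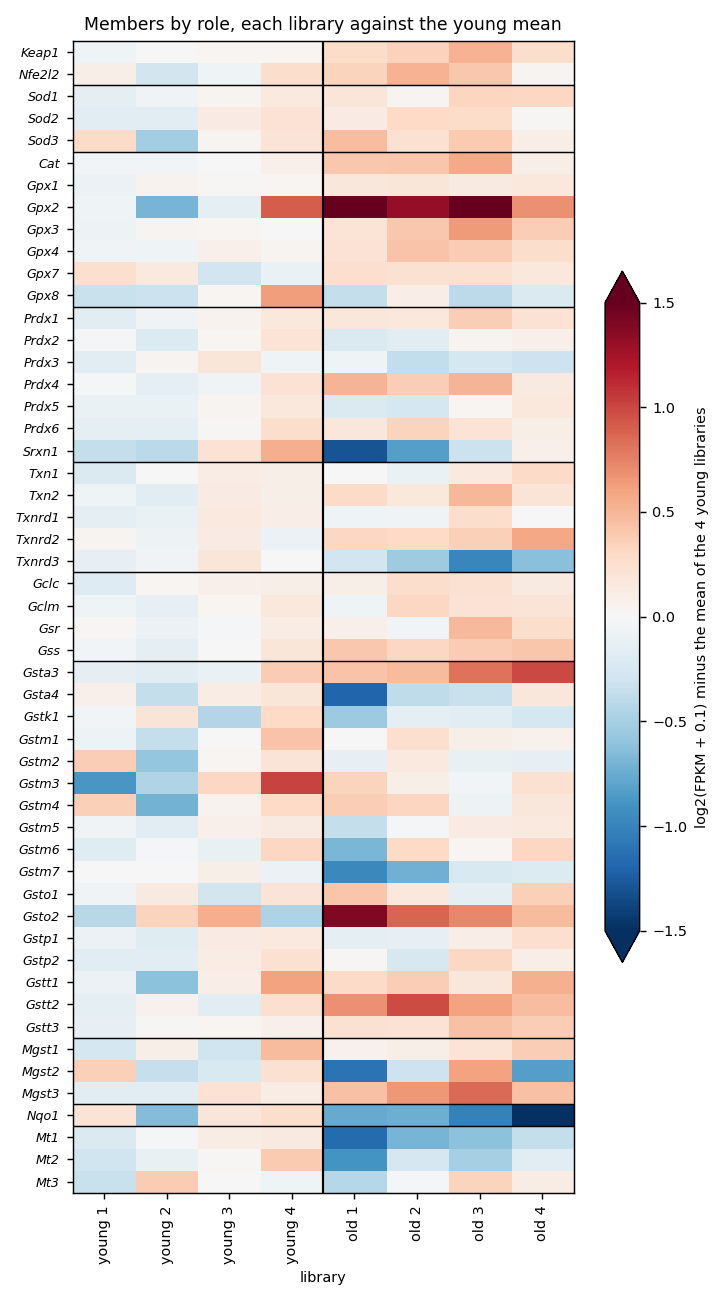
Log2(FPKM + 0.1) of the 52 tested members in each library minus the mean of the 4 young libraries, with members in rows by role and libraries in columns. Colours beyond 1.5 are drawn at the end of the scale. Mt1 and Nqo1 are below the young mean in all 4 old libraries, Keap1, Gpx3, Gss and Mgst3 are above it in all 4, and Srxn1 differs as much between libraries of the same age as between ages.

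Counted over all 52 tested members, 13 had every old library above every young one (25.0%), beside 13.4% of all genes, and 4 every old library below (7.69%), beside 2.06%. Under median-of-ratios scaling the counts were 7 and 5, beside 5.66% and 5.75% of all genes. The 13 were Cat, Gclc, Gpx1, Gpx3, Gpx4, Gss, Gsta3, Gstt2, Gstt3, Keap1, Mgst3, Txn2 and Txnrd2. Of the 21 tested members whose fold changes are not printed, 13 had a log2 fold change above 0, beside 70.0% of all genes, between -0.41 and 0.34 in all.

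Genes that produce oxidants were counted for comparison. Of 11 tested genes of NADPH oxidase and other oxidant sources, 3 rose and none fell, beside 1.86% and 0.472% of all genes. At an unadjusted p under 0.05, 7 were higher, beside 18% of all genes. Rac2, a GTPase of the phagocyte oxidase, rose from a mean of 0.272 to 0.784 FPKM (log2 fold change 1.24, adjusted p = 0.028, limma). Xdh, xanthine dehydrogenase, rose from 3.66 to 7.08 FPKM (0.94, adjusted p = 0.043). Cybb, the catalytic subunit of the phagocyte oxidase, rose from 1.42 to 3.14 FPKM (1.13, adjusted p = 0.044). Under median-of-ratios scaling 1 of the 3 stayed past the threshold, Rac2 (adjusted p = 0.046). Of 10 tested genes of oxidative DNA repair, none passed (limma), and 3 were higher at an unadjusted p under 0.05, beside 18% of all genes. The smallest p was that of Nudt1, which clears oxidised nucleotides (log2 fold change 0.51, adjusted p = 0.11, limma, and 0.37, adjusted p = 0.25, under median-of-ratios scaling).

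Markers of several cell types moved with age in the same libraries. Summed levels of 10 macrophage markers ranged from 35.2 to 59.7 FPKM (young) and 75.8 to 102 FPKM (old), and 2 of them, C1qb and Lyz2, rose. Of 4 tested lymphocyte and plasma cell markers 2 rose (Jchain and Ptprc), with sums of 0.718 to 1.09 FPKM (young) and 3.35 to 4.70 FPKM (old). Of 7 fibroblast markers 2 fell (Col1a1 and Col3a1), with sums of 67.3 to 80.8 and 45.9 to 75.7 FPKM. Of 4 somatotroph markers Gh fell, with sums of 57585 to 70204 and 20382 to 28021 FPKM. Of 10 markers of other hormone cells 2 fell (Gnrhr and Lhb), with sums of 2658 to 5495 and 3537 to 5147 FPKM. At an unadjusted p under 0.05 (limma), 9 macrophage, 4 lymphocyte and plasma cell and 1 somatotroph marker were higher. By the same measure 3 fibroblast, 2 somatotroph and 3 other hormone cell markers were lower. Of all genes 1.86% were called higher and 0.472% lower, and 18% were higher and 3.79% lower at an unadjusted p under 0.05. None of the 3 lactotroph, 10 stem and folliculostellate, 8 endothelial, 7 pericyte and smooth muscle, 3 tested pituicyte and 5 tested red blood cell markers passed the test, with 0, 4, 0, 2, 2 and 0 of them at an unadjusted p under 0.05 in either direction. Their sums were 75049 to 85441 and 75326 to 98315 FPKM for lactotrophs, 112 to 148 and 122 to 147 FPKM for stem cells, 73.5 to 102 and 76.1 to 104 FPKM for endothelium, 22.1 to 33.9 and 19.3 to 40.0 FPKM for pericytes, 1.92 to 2.34 and 2.09 to 7.98 FPKM for pituicytes, and 13.0 to 110 and 15.9 to 124 FPKM for red blood cells. Under median-of-ratios scaling Sox2 (stem cells, adjusted p = 0.044) and Aqp4 (pituicytes, adjusted p = 0.034) were also called lower, 1 macrophage marker (C1qb) in place of 2 was called higher, and the calls of the other lists stayed the same. No marker was at 0 in all 8 libraries. Their part in the members' values was not tested, and in bulk samples fewer cells of a type and less RNA per cell cannot be told apart.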

How the data were processed

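Per the labels, the submitters' processing notes and the paper's methods, STAR 2.6.1a placed the authors' read pairs on GRCm38, and the authors counted fragments over Ensembl genes with featureCounts, and deposited FPKM computed with edgeR 3.28.1. CASAVA 1.9 is also named. Neither the Ensembl release nor strandedness is given in the sources used here. Fragments were computed back from FPKM with exon lengths of GENCODE M21. They are printed for named genes with an annotated length alone (47 of 58 members).

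The members, gene lists and tests were chosen with earlier results of these data known. limma 3.58.1 (R 4.3.3) was fitted on log2(FPKM + 0.1) for every gene whose mean reached 0.1 FPKM, with age as the only term, and called at an adjusted p under 0.05. Fold changes on this scale understate those of low genes. Values were given for members past the threshold, the 10 most abundant, the 8 largest log2 fold changes at a mean of 1 FPKM or more, the regulators, the glutathione synthesis genes and metallothioneins. Of each gene list, up to 3 members past the threshold were named or, with none, the 1 with the smallest p. Txnip and Msrb1 stand in 2 lists each. Alternatives were other pseudocounts, filters, scalings, limma-trend, robust limma, voom on recovered fragments, a replicate block and each library left out. The test was tried on simulated libraries. Python 3.11.15, bedtools 2.31.1 and RefSeq promoter windows (GRCm38.p6) were also used. No 2 libraries of an age agreed within sampling noise.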

Additional observations from a re-analysis of the deposited data

Results flagged for a closer look

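Each of the 52 tested members was looked at in each age, which made 104 groups of 4 libraries, for a library far from the other 3, and chance alone gives such a library in about 1 in 20 groups. In 3 groups one was found. Nqo1 in young library 2 was at 5.86 FPKM, below the other young libraries at 10.5 to 11.1 FPKM. Without that library its log2 fold change was -1.24 in place of -1.03. Gsta3 in young library 4 was at 0.579 FPKM, above the others at 0.367 to 0.383 FPKM. Gstm2 in old library 2 was at 4.25 FPKM, above the others at 3.51 to 3.55 FPKM. The cause was not tested.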

How the results depend on the processing

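With FPKM as deposited and limma, no member was called higher or lower. A pseudocount of 1 FPKM called 1 member higher (Gstt2), with 689 genes higher in all, and the filter at a mean of 1 FPKM called 4 members higher (Gss, Gstt2, Keap1 and Mgst3) and 1 lower (Mt1), with 796 genes higher in all. With no filter 263 genes were higher in all and no member was called. Median-of-ratios scaling called 1 member lower (Mt1), with 208 genes higher and 215 lower in all. At an unadjusted p under 0.05 it gave 8 members higher and 9 lower, beside 8.78% and 8.44% of all genes. It left 7 members with every old library above every young one, beside 5.66% of all genes. Upper-quartile scaling called 1 member lower (Mt1), with 211 genes higher and 204 lower in all. At an unadjusted p under 0.05 it gave 8 of 52 members lower, beside 1908 of 23498 genes. The library size without hormone and ribosomal RNA repeat genes called 1 member lower (Mt1), with 213 genes higher and 187 lower in all. At an unadjusted p under 0.05 it gave 7 of 52 members lower, beside 1774 of 23498 genes. limma-trend called 3 members higher and 1 lower, with 705 genes higher and 139 lower in all. voom called 4 members higher and 2 lower, with 1436 genes higher and 356 lower in all. At an unadjusted p under 0.05 it gave 7 of 52 members lower, beside 1041 of 23497 genes. voom with median-of-ratios library sizes, added after seeing the data, called 4 members lower (Mt1, Mt2, Nqo1 and Txnrd3) and none higher, with 598 genes higher and 732 lower in all. At an unadjusted p under 0.05 it gave 9 of 52 members higher and 11 lower. Beside these stood 2227 genes higher and 2446 lower of 23497. Robust limma and a pseudocount of 0.01 FPKM called no member.

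With each library left out in turn no member was called, while 64 to 327 genes were called higher and 21 to 163 lower in all. At an unadjusted p under 0.05, 11 to 18 of 52 members were higher and 3 to 7 lower. By the same measure 3149 to 4474 genes were higher and 688 to 1218 lower in all, of 23322 to 23550 tested. A library left out leaves fewer samples, and the counts of all genes called were lowest without old library 2 (64 higher) and without young library 3 (21 lower). Over all tested genes the correlations of same-numbered deviations were 0.04, -0.04, 0.00 and 0.01, which shows no general pairing by replicate number. Whether single genes share an order by number was not tested. The replicate block called 4 genes higher and 0 lower in all, and no member (smallest adjusted p of a member 0.14). At an unadjusted p under 0.05 the block gave 3465 and 908 genes.

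Of 616 alternative values of the log2 fold changes of 31 members, 570 kept their sign and side of the threshold, 23 passed the threshold with the same sign, and 23 changed sign, all in genes with a log2 fold change of 0.10 or less in size. Gstm1 was at -0.054 with median-of-ratios and -0.048 with upper-quartile scaling, -0.037 with the library size without hormone genes, -0.061 with voom at median-of-ratios sizes, and -0.023 to 0.24 over left-out libraries. Gstp1 was at -0.131, -0.125, -0.114 and -0.134 in the same order, and at -0.055 to 0.073 over left-out libraries. Txn1 was at -0.067, -0.062, -0.051 and -0.068 in that order. Mt3 was at 0.016 with voom and -0.11 to 0.14 over left-out libraries, and Prdx2 at -0.13 to 0.0039 over left-out libraries. The scalings move the medians of all genes by construction. The cause of the other differences was not tested. Counts of 117 to 287 fragments per age, as for Txnrd3 and Gstm7, limit what the test can show.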
